A study of Rattus norvegicus with 6 samples.

Results

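Marker genes of lymphocytes were followed in rat myocardium, namely Cd3d, Cd3e, Cd3g, Cd8a and Cd2 for T cells, Cd79a, Cd79b and Ms4a1 for B cells, and Nkg7 for natural killer (NK) and other cytotoxic lymphocytes. The 9 genes were chosen by name, with earlier results of these data known, and each matched 1 of the 32623 genes in the table. RNA of the myocardium was sequenced for a sham group and an ischemia group of 3 samples each, and the question was how far the RNA of these markers differed between the groups. All rats were described as male and of WT genotype, and the 30 min time was shared by both groups. In the ischemia group a ligature was tied around the left anterior descending artery after a left thoracotomy under anesthesia, while the sources used here give no further detail of the sham surgery and name neither strain nor age. The labels do not say that each sample came from a separate rat, so p-values measure only the spread between these samples.

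T cells recognize antigen through a receptor whose signal is carried into the cell by the CD3 chains, and the coreceptors CD4 and CD8 bind the presenting MHC molecule beside it. B cells recognize antigen through a membrane immunoglobulin that signals through the CD79A and CD79B pair, and cytotoxic lymphocytes kill target cells with granules holding perforin and granzymes. A healthy heart holds few lymphocytes, and they are known to enter it later than neutrophils after an infarct. In the rat some of these molecules are shared with other leukocytes: CD4 is also carried by macrophages and monocytes, and CD8 alpha by NK cells and by some activated macrophages. In bulk tissue, fewer cells of a type and less RNA per cell cannot be told apart.

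The upstream sequences of 3 members are shown because these genes stand for the different patterns described below: Cd8a rose, Cd3e was moderately higher without passing the test, and Nkg7 differed least. Each is the stretch of 250 bases just before the annotated start, from the RefSeq promoter table of build GRCr8, which is not known to be the build of the deposited counts. Cd8a lies at chr4:104923866-104924115 on the plus strand, Cd3e at chr8:54211771-54212020 on the minus strand and Nkg7 at chr1:102981247-102981496 on the plus strand, although the deposited table lists Nkg7 on the minus strand of its own build. Capitals mark matches on either strand to AGGAAG, the core bound by ETS factors, and to TGTGGT, the core bound by RUNX factors, both of which are families with known roles in lymphocyte genes.
Cd8a: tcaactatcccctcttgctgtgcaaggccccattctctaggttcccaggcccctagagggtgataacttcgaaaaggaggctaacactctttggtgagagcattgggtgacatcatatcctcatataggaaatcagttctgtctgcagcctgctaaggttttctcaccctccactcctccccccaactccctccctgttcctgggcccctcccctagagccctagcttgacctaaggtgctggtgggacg
Cd3e: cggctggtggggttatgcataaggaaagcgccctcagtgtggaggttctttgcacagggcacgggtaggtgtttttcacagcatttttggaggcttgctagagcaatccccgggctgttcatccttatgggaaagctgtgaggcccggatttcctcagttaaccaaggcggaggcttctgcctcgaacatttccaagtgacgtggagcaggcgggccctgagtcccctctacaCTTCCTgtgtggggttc
Nkg7: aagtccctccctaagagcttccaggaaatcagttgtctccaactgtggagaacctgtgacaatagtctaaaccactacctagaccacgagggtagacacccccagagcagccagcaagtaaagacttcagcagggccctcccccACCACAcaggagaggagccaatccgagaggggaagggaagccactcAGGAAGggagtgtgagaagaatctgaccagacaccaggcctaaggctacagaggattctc
The Cd3e stretch held the ETS core 17 bases before the start. The Nkg7 stretch held the ETS core 60 bases and the RUNX core 106 bases before the start, and the letters of either core were not in the Cd8a window. Promoters were found for 7 of the 9 members, not for Cd79b and Ms4a1. Over all 33469 promoters of the table, cut to the same 250 bases, 29.5% held AGGAAG and 14.5% held TGTGGT, against 5 and 2 of the 7 members. The E-protein box CAGGTG was in 15.9% of all promoters and in 2 members, Cd3g and Cd79a. The octamer ATGCAAAT, known from B cell genes, was in 1.56% of all promoters and in 0 of the 7. These matches are descriptions of letters only and overlap no other motif that was searched.

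Total counts ranged from 68529126 to 79591989 per sample. On total counts alone, 3 counts thus corresponded to between 0.0377 and 0.0438 CPM (counts scaled to the size of the library). Some libraries stood apart within their group. Sham replicate 1 had 4 reads on the 3 Y-linked genes Kdm5d, Eif2s3y and Usp9y, against 1762 to 4358 in the other libraries, although every rat was labelled male. The summed CPM of 5 atrial cardiomyocyte genes reached 47870 in sham replicate 1 and 35940 in sham replicate 3, against 394.0 in sham replicate 2 and 1218 to 9252 in ischemia. The summed CPM of 4 lung epithelial genes was 250.6 in ischemia replicate 1, 8.42 in sham replicate 3 and at most 0.225 in the other 4 libraries. The summed CPM of 16 neutrophil and monocyte genes separated the groups, at 37.8 to 147.0 in sham and 747.5 to 2882 in ischemia, with the highest value in ischemia replicate 2. The part of these differences in the results below was not tested.

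All 9 markers were expressed at low levels. FPKM (fragments scaled by gene length and by library size, a level that can be compared between genes) averaged 5.73 ± 1.69 (SD, n = 3) for Nkg7 in sham, the highest of the members. Cd2 (2.54), Cd8a (2.39) and Cd3g (2.38) followed in sham, then Cd3e (1.65) and Cd3d (1.32), and the B cell genes Cd79a (0.725), Cd79b (0.723) and Ms4a1 (0.137) were lowest. The samples of Cd2, Cd8a and Cd3g overlapped, as did those of Cd3e and Cd3d and those of Cd79a and Cd79b, so these neighbours did not differ beyond their spread. In ischemia Cd8a had the highest level, at 11.5 ± 3.56 (SD, n = 3), before Nkg7 (6.79), Cd2 (6.71), Cd3g (5.10), Cd3e (2.92), Cd3d (2.34), Cd79b (1.94), Cd79a (1.82) and Ms4a1 (0.429). The samples of neighbours overlapped in this order too, except between Cd3g and Cd3e and between Cd79a and Ms4a1. Within each ischemia library, however, Cd8a was above Nkg7 and Cd3e above Cd3d. Genes were tested for ischemia against sham with the quasi-likelihood test of edgeR where FPKM averaged 0.5 or more over the 6 samples, a filter which 8 of the 9 members and 13964 genes in all passed. Each of the 8 averaged above 0.5 in sham alone. A gene with a sham mean under 0.5 passed only through its ischemia values and so had to be higher there, which applies to 516 of all genes tested, while 529 passed only through sham. Counts and medians of the lists below are therefore descriptions, and such genes are counted beside them. A log2 fold change is ischemia minus sham, a gene is called at a Benjamini-Hochberg adjusted p under 0.05, and groups are called apart when all samples of one group lie above all samples of the other on scaled CPM.

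**Figure D1:**
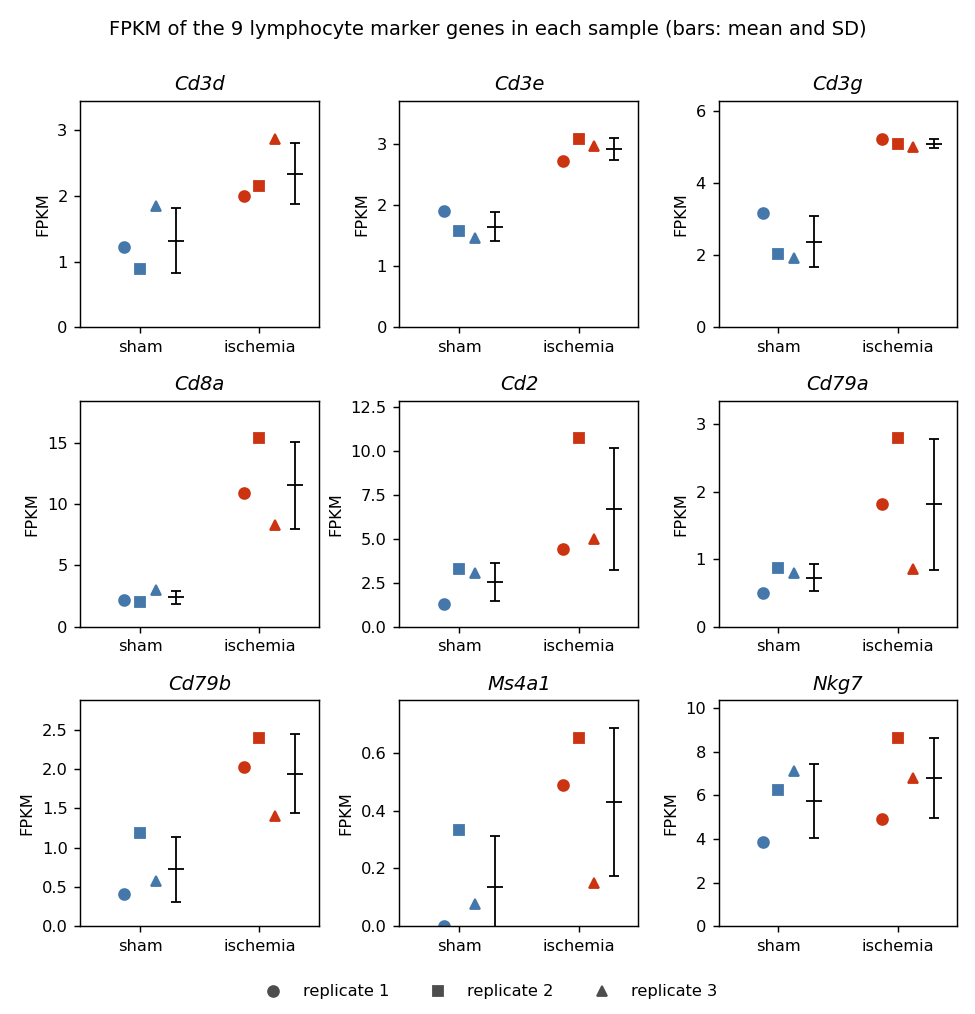
FPKM of each marker gene (vertical axis, starting at 0) in the 3 sham samples (blue) and the 3 ischemia samples (red), where the shape gives the replicate and the bars give the mean and SD. The Cd8a samples of ischemia lie at 8.28 to 15.3, above all sham samples at 2.03 to 3.0, while the Nkg7 samples of the groups overlap; the lower SD bar of Ms4a1 in sham is clipped at 0.

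Cd8a rose 4.49-fold in ischemia and was the member that passed the test, of 8 tested. Over all genes tested, 723 (5.18%) were called higher and 214 (1.53%) lower by edgeR, and 0 members were called lower by edgeR, DESeq2 or limma, with 0 lower at an unadjusted p under 0.05. The CD3 genes, Cd2, Cd79a and Cd79b had estimates between 0.73 and 1.25 in log2 and did not pass, with 2 of these 6, Cd3e and Cd3g, at an unadjusted p under 0.05. Of all genes tested, 2541 (18.2%) were higher and 1987 (14.2%) lower at that unadjusted p, which is the background for such counts in the lists as well. Nkg7 had an estimate near 0. In 6 of the 8 members every ischemia sample lay above every sham sample. Among all genes tested 22% were apart in that direction and 19.1% in the other. For each of the 6 members the exact permutation p was 0.1, the smallest that 3 samples against 3 can give. DESeq2 called 3 members higher (Cd8a, Cd3g and Cd3e), and of the 13856 genes to which it gave an adjusted p it called 2071 (14.9%) higher and 1742 (12.6%) lower. Limma called 1 member higher, and 850 (6.09%) of all genes higher and 262 (1.88%) lower.

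**Figure D2:**
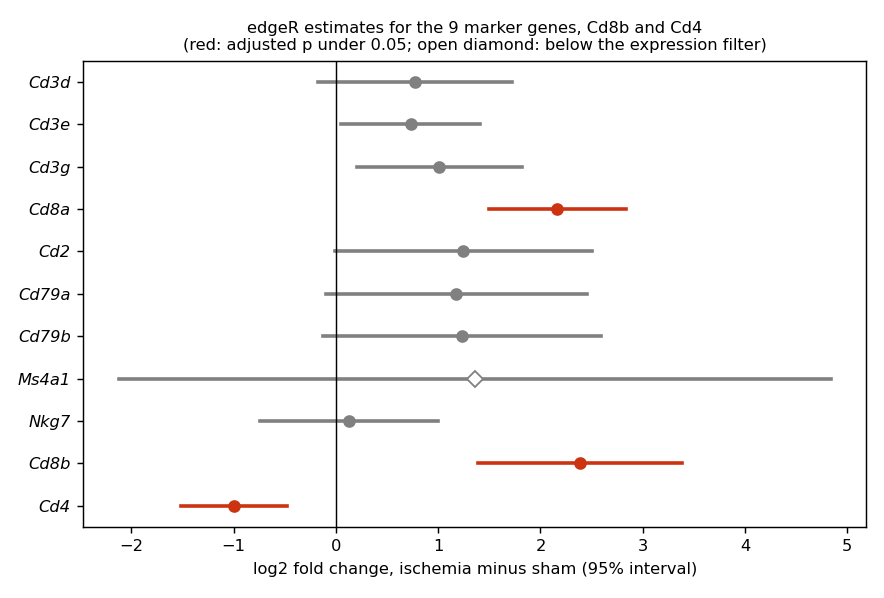
Estimated log2 fold change, ischemia minus sham, with its 95% interval from edgeR for the 9 markers and for Cd8b and Cd4, where red marks an adjusted p under 0.05 and the open diamond marks Ms4a1, which did not pass the expression filter. The interval of Cd8a runs from 1.495 to 2.84 and that of Nkg7 from -0.74 to 1.001.

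Cd8a encodes the alpha chain of the CD8 coreceptor, which pairs with itself or with the beta chain. The deposited table places it at chr4:99239115-99243351, plus strand. In the order of the replicates, its FPKM was 2.16, 2.03 and 3.0 in sham against 10.9, 15.3 and 8.28 in ischemia, resting on 229, 229 and 302 counts against 1249, 1597 and 816 counts. The sham samples lay close together, and the lowest ischemia sample was far above the highest of them. This gave a log2 fold change of 2.17 ± 0.28 (SE), at an edgeR adjusted p of 0.0272. The paper selected upregulated genes of the MAPK pathway at a log2 fold change above 2 with p under 0.01. It names no test and does not say whether that p was adjusted. With the unadjusted edgeR p in its place, Cd8a passed this selection rule, which 462 genes (3.31%) of all genes tested met upward. The estimate was 2.17 without ischemia replicate 1, the library with lung genes, and was again called (edgeR adjusted p 0.0180). Without ischemia replicate 2, the library with the highest neutrophil and monocyte sum, it was 1.96 and called (edgeR adjusted p 0.0316), but under the fold limit of the selection rule. It was not called without sham replicate 1 (2.06, edgeR adjusted p 0.157), sham replicate 2 (2.15, 0.0820), sham replicate 3 (2.29, 0.125) or ischemia replicate 3 (2.32, 0.110), and in each of those fits 0 genes of the whole table were called by edgeR, with 3020 to 3809 at an unadjusted p under 0.05. The same holds for every other edgeR call given below.

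The CD3 chains form the signaling part of the T cell receptor, and their genes are neighbours, with Cd3g at chr8:49274960-49280901 (minus strand), Cd3d at chr8:49282460-49287110 (plus strand) and Cd3e at chr8:49297608-49308806 (minus strand). FPKM of Cd3e was 1.91, 1.57 and 1.46 in sham and 2.72, 3.08 and 2.96 in ischemia. FPKM of Cd3g was 3.18, 2.05 and 1.91 in sham and 5.23, 5.08 and 5.0 in ischemia. For both genes the ischemia samples agreed closely and all lay above sham, where replicate 1 was the highest. On the log2 scale the difference was 0.73 ± 0.28 (SE) for Cd3e (edgeR adjusted p 0.134) and 1.01 ± 0.34 (SE) for Cd3g (edgeR adjusted p 0.104). DESeq2 called both, with adjusted p-values of 0.0320 and 0.0162. FPKM of Cd3d was 1.23, 0.879 and 1.85 in sham and 2.0, 2.15 and 2.86 in ischemia. Replicate 3 was the highest of each group for Cd3d, and the gap between the highest sham and the lowest ischemia sample was narrow. The log2 fold change of Cd3d was 0.77 ± 0.39 (SE), with a 95% interval from -0.18 to 1.72 and an edgeR adjusted p of 0.220. Counts behind these levels were modest, 52 to 97 in sham and 117 to 147 in ischemia for Cd3d, and 160 to 219 and 316 to 347 for Cd3e.

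Cd2 encodes an adhesion receptor of T cells and NK cells that binds CD48 in the rat. The gene is at chr2:203666637-203680083, minus strand. FPKM of Cd2 was 1.29, 3.27 and 3.07 in sham and 4.45, 10.7 and 4.98 in ischemia. Ischemia replicate 2 had more than the other ischemia samples, and sham replicate 1 less than the other sham samples. Its log2 fold change of 1.25 ± 0.52 (SE) had a 95% interval from -0.01 to 2.50 (edgeR adjusted p 0.156), and it was 0.81 without ischemia replicate 2. The 5 T cell markers together had a summed CPM of 10.3, 13.7 and 12.4 in sham and 29.9, 40.8 and 28.9 in ischemia. Cd8a and Cd2 carried the higher sum in ischemia replicate 2, where the CD3 genes did not stand out.

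Cd79a and Cd79b encode the signaling pair of the B cell receptor, and Ms4a1 encodes CD20, a surface protein of mature B cells. Cd79b (chr10:94497448-94500591, minus strand) had FPKM values of 0.409, 1.19 and 0.571 in sham and 2.03, 2.39 and 1.40 in ischemia. Its groups were barely apart, since sham replicate 2 had a scaled CPM of 1.79 and ischemia replicate 3 of 1.80. The log2 fold change was 1.23 ± 0.56 (SE; edgeR adjusted p 0.181), and without sham replicate 2 it was 1.96. Cd79a (chr1:81763614-81767980, plus strand) had FPKM values of 0.497, 0.877 and 0.801 in sham and 1.81, 2.79 and 0.849 in ischemia. Ischemia replicate 3 lay within the sham range, so the groups overlapped (exact permutation p 0.2). Its log2 fold change was 1.18 ± 0.53 (SE), with a 95% interval from -0.10 to 2.45 and an edgeR adjusted p of 0.178. Ischemia replicate 3 was the lowest ischemia sample for all 3 B cell genes.

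Ms4a1 (chr1:227429596-227441442, minus strand) did not pass the expression filter, with a mean FPKM of 0.283. It had 0, 34 and 7 counts in sham and 50, 61 and 13 counts in ischemia. On total counts alone, 0 counts allow a level of up to 0.0407 CPM in sham replicate 1. Sham replicate 2 had more counts than ischemia replicate 3. In a fit without the filter the log2 fold change was 1.36 ± 1.47 (SE), with a 95% interval from -2.12 to 4.84 (edgeR adjusted p 0.569). Without sham replicate 2 the estimate was 3.45 and without sham replicate 1 it was 0.77, neither of which passed. A difference was not detectable with these samples at this depth. The 3 B cell genes had a summed CPM of 1.01, 3.41 and 1.59 in sham and 4.99, 6.10 and 2.92 in ischemia, with an overlap between sham replicate 2 and ischemia replicate 3.

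Nkg7 encodes a granule membrane protein of NK cells and cytotoxic T cells. The table lists it at chr1:98492828-98493978, minus strand. FPKM of Nkg7 was 3.85, 6.23 and 7.11 in sham and 4.93, 8.62 and 6.81 in ischemia, with 259 to 455 counts in sham and 359 to 570 in ischemia. The samples of the groups were interleaved (exact permutation p 0.6). The log2 fold change was 0.13 ± 0.36 (SE), with a 95% interval from -0.74 to 1.001 and an edgeR adjusted p of 0.820. The direction changed with single libraries, to -0.12 without sham replicate 1 and to -0.018 without ischemia replicate 2.

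Levels of different markers were next set against each other within each sample, as ratios of FPKM, which do not depend on the scaling of the libraries. The ratio of Cd8a to Cd3e was 1.13, 1.30 and 2.05 in sham and 4.01, 4.98 and 2.80 in the ischemia group. Sham and ischemia were apart, as they were for Cd8a over Cd3g (0.678 to 1.57 in sham, 1.66 to 3.02 in ischemia), each with an exact permutation p of 0.1. The ratio of Cd8a to Cd8b, the gene of the CD8 beta chain, was 4.57 to 7.49 in sham and 4.14 to 5.41 in ischemia, and the groups overlapped (exact permutation p 0.3). Cd3d over Cd3e (0.561 to 1.26 in sham, 0.697 to 0.967 in ischemia) and Cd3g over Cd3e (1.31 to 1.67 and 1.65 to 1.92) also overlapped. Nkg7 over Cd3e was 2.02, 3.98 and 4.86 in sham and 1.81, 2.80 and 2.30 in ischemia, again with an overlap. Cd79b over Cd3e was 0.214 to 0.759 in sham and 0.473 to 0.778 in ischemia.

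**Figure D3:**
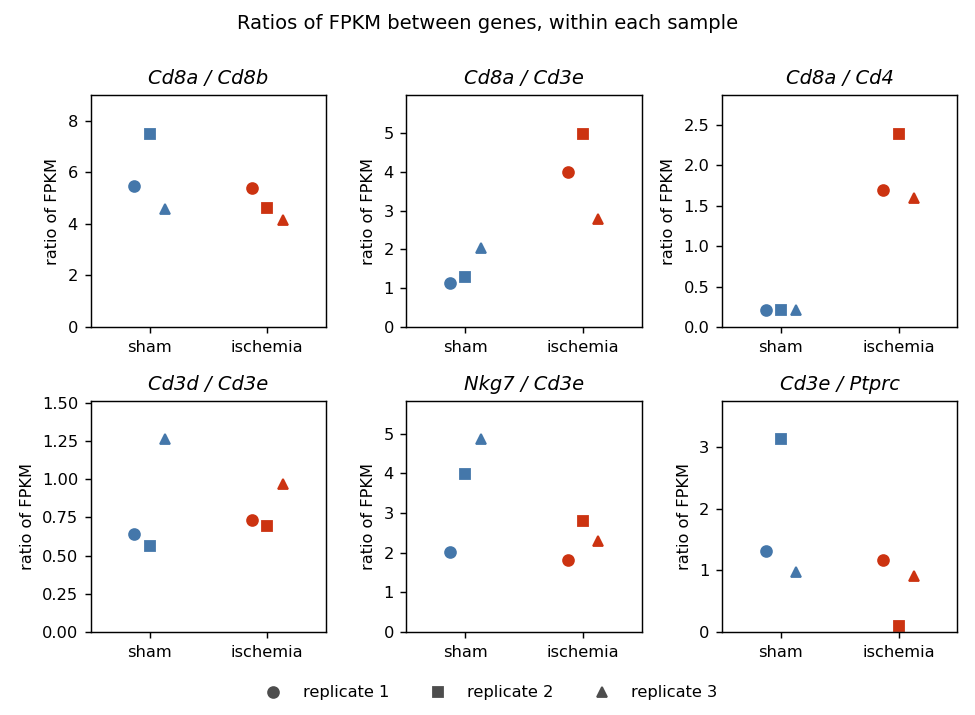
Ratios of FPKM between gene pairs within each sample (vertical axes, starting at 0) for the 3 sham samples (blue) and the 3 ischemia samples (red), where the shape gives the replicate. Cd8a over Cd4 lies at 0.204 to 0.216 in sham and at 1.60 to 2.39 in ischemia, while Cd8a over Cd8b overlaps between the groups. The separation of Cd8a over Cd4 was fixed, since Cd8a was apart upward and Cd4 downward.

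Cd8b was called higher and Cd4 lower. Cd8b had an FPKM of 0.394, 0.271 and 0.656 in sham and 2.02, 3.32 and 2.0 in ischemia, and rose by 2.39 ± 0.41 in log2 (SE; edgeR adjusted p 0.0361). Its sham mean of 0.440 is under the minimum of the filter, which it passed only through ischemia, and in the fit without a filter the estimate was 2.41 (edgeR adjusted p 0.0447). Cd4 had an FPKM of 9.99, 9.41 and 14.7 in sham and 6.45, 6.42 and 5.18 in ischemia. All ischemia samples lay below all sham samples, and Cd4 fell by 0.996 ± 0.21 in log2 units (SE; edgeR adjusted p 0.0484), close to the threshold. Cd4 was called in 7 of 19 alternatives, with estimates from -1.11 to -0.80. Without ischemia replicate 2 neither gene passed, with edgeR adjusted p-values of 0.0560 for Cd8b and 0.0787 for Cd4. The ratio of Cd8a to Cd4 was 0.216, 0.216 and 0.204 in sham and 1.69, 2.39 and 1.60 in ischemia. Cd4 over Cd3e was 5.23 to 10.04 in sham and 1.75 to 2.37 in ischemia. Since Cd8a and Cd3e were apart upward and Cd4 downward, both separations were fixed, as was the exact permutation p of 0.1 for each. These ratios are therefore descriptions and add no test.

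Beyond the markers, 16 of 26 genes of a wider T cell list were tested. 1 was called higher (Cd8b) and 1 lower (Cd4), 12 had an estimate above 0, and the median log2 fold change was 0.43, where the 13964 genes tested had a median of -0.0015 with 6968 above 0. At an unadjusted p under 0.05 1 was higher and 2 were lower, DESeq2 also called 1 higher and 2 lower, and limma called 1 higher. The filter was passed through ischemia alone by 4 of the 16, Cd8b among them, and the 11 that averaged 0.5 or more in each group had a median of 0.38 with 0 called higher. Groups were apart upward for 7 of the 16 and downward for 3. Lck, the kinase that acts first at the T cell receptor, had 0.38 ± 0.33 (SE; edgeR adjusted p 0.447), and Zap70, the kinase after it, had 0.43 ± 0.32 (SE; 0.367). Cd247, the zeta chain of the receptor complex, had an estimate of 0.26 and overlapping groups. Ptprcap, a protein bound to CD45, had 0.63 and did not pass (edgeR adjusted p 0.216). Thy1, which is also carried by fibroblasts and neurons, had an FPKM of 14.0, 4.28 and 88.6 in sham and 4.99, 2.84 and 3.83 in ischemia (-3.17, edgeR adjusted p 0.101, DESeq2 adjusted p 0.00323), and without sham replicate 3 its estimate was -1.29. Icos, an activation receptor below the filter, had an FPKM of 0.0887, 0.141 and 0.232 in sham and 0.422, 0.922 and 0.602 in ischemia (1.96, edgeR adjusted p 0.113 without the filter).

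In the wider B cell list 11 of 20 genes were tested and 0 were called by edgeR, with 7 at an unadjusted p under 0.05, all higher, where 18.2% of all genes tested were higher at that p. DESeq2 called 4 higher, against 14.9% of all genes, and limma 0. The median log2 fold change was 1.43 and 8 of the 11 were above 0. However, 3 of the 7 (Fcrla, Spib and Btk) passed the filter only through ischemia, as did 3 of the 4 called by DESeq2, and among the 8 genes that averaged 0.5 or more in each group 4 were higher at that p and the median was 0.85. Spib, a transcription factor of B cells and plasmacytoid dendritic cells, had an FPKM of 0.0560, 0.0951 and 0.258 in sham and 1.03, 3.08 and 0.692 in ischemia (3.41 ± 0.79 SE, edgeR adjusted p 0.0523). Cd37, a tetraspanin of B cells and other leukocytes, had 3.41, 3.43 and 5.45 in sham and 4.97, 23.1 and 7.82 in ischemia (log2 fold change 1.43, edgeR adjusted p 0.137). Without ischemia replicate 2 the estimate of Cd37 was 0.62, and without ischemia replicate 1 it was 1.77 and was called (edgeR adjusted p 0.0490). Blnk, an adaptor of the B cell receptor, had an estimate of 0.46, and Fcer2, the low-affinity IgE receptor, of -2.61, which rested on an FPKM of 16.4 in sham replicate 2 against 0.637 to 2.04 in the other libraries. Pax5, the factor that sets B cell identity, had an FPKM of at most 0.145 in any library and was listed without reads in 3 of the 6.

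Immunoglobulin genes differed widely between libraries of the same group. Ighm, the heavy chain of IgM, had 384, 750 and 735 counts in sham and 2469, 1951 and 578 in ischemia, so that ischemia replicate 3 lay within the sham range (log2 fold change 1.26, edgeR adjusted p 0.157). The row named Igh-6 had 15, 41 and 139 counts in sham and 1558, 74 and 44 in ischemia, and Ighg1 had 30 counts in ischemia replicate 1 and 0 in the other 5 libraries. Ischemia replicate 1 is the library with the highest lung gene sum, and whether lung tissue contributed to these counts was not tested. Jchain, which joins secreted IgM and IgA, had an FPKM of 0.607, 0.406 and 1.18 in sham and 3.60, 5.29 and 0.761 in ischemia (log2 fold change 2.02, edgeR adjusted p 0.127). Immunoglobulin genes can share reads with near-identical copies, and their values are uncertain for that reason.

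In the wider NK and cytotoxic list 17 of 26 genes were tested, 0 were called by edgeR, 9 were above 0 and the median log2 fold change was 0.39. The median was -0.18 over the 15 genes that averaged 0.5 or more in each group, so the sign of the list's median rested on 2 genes that passed through ischemia alone, Ncr3 and Il18rap. Unadjusted p was under 0.05 for 3 genes upward and 1 downward, and DESeq2 called 2 higher and 1 lower, and limma 0. Prf1, which encodes perforin, had an FPKM of 0.911, 1.82 and 1.85 in sham and 0.902, 1.76 and 1.72 in ischemia, a log2 fold change of -0.18 (edgeR adjusted p 0.798). Sham replicate 1 and ischemia replicate 1 were low for Prf1, as they were for Nkg7. Ccl5, a chemokine of cytotoxic lymphocytes, had the highest level of the list, with an FPKM of 7.88, 16.3 and 21.7 in sham and 20.6, 22.9 and 29.4 in ischemia (0.58, edgeR adjusted p 0.362). Il2rb, a chain of the interleukin receptor on which NK cells depend, had -0.24, and Gzmm, a granzyme of NK cells, had -0.41, neither of which passed (edgeR adjusted p 0.650 and 0.576). Both signs turned without sham replicate 2, to 0.085 and 0.013. The 3 genes that were higher at an unadjusted p under 0.05 were Il18rap, a chain of a cytokine receptor, Cd244, a receptor of NK cells and cytotoxic T cells, and Gzmk, a granzyme, at 2.91, 1.87 and 1.46 on the log2 scale (edgeR adjusted p 0.0719, 0.0709 and 0.154). FPKM of Il18rap was 0.392, 0.317 and 0.457 in sham and 0.990, 7.45 and 1.23 in ischemia, where replicate 2 stood far above the others. Xcl1, a chemokine of NK cells and CD8 T cells, had 3.06, 6.13 and 5.48 in sham and 2.42, 2.21 and 1.57 in ischemia (-1.36, edgeR adjusted p 0.1001). Gzmc had 2.71, 5.4 and 3.41 in sham and 0.938 and 0.609 in ischemia replicates 2 and 3, and was listed at 0 in ischemia replicate 1 (edgeR adjusted p 0.165).

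Of 16 lymphocyte homing and activation genes 11 were tested, 1 was called higher and 0 lower by edgeR (5 higher and 0 lower at an unadjusted p under 0.05, and 4 higher by DESeq2), and the median was 0.86. The called gene and 2 others passed the filter only through ischemia. Cxcr3, a chemokine receptor of effector T cells, had FPKM values of 0.811, 1.17 and 1.504 in sham and 2.70, 2.65 and 2.58 in ischemia, with the groups apart (1.09 ± 0.34 SE, edgeR adjusted p 0.0927). Klf2, a factor of resting lymphocytes and endothelium, had 0.66 ± 0.22 (SE; edgeR adjusted p 0.108). S1pr1, the receptor that lets lymphocytes leave tissue and that endothelium also carries, had -0.25, and the chemokine receptor Cxcr4 had 0.52, both with overlapping groups. Without ischemia replicate 2 Cxcr4 had -0.66. Il2 had 0 counts in every library.

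**Figure D4:**
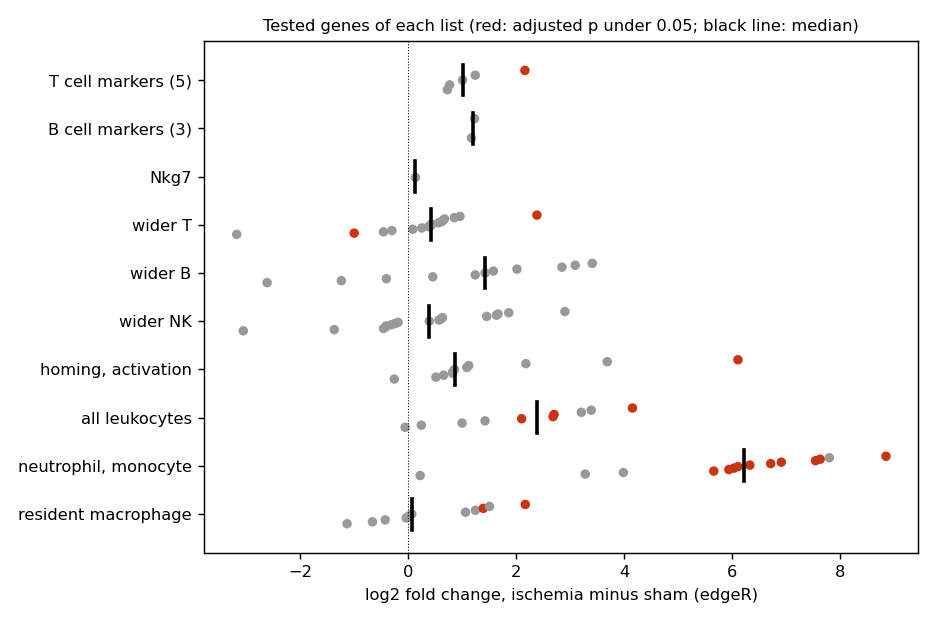
Log2 fold change, ischemia minus sham, of each tested gene (points) in the marker groups and in wider gene lists, with the median as a black line and red for an edgeR adjusted p under 0.05. The T cell markers lie between 0.73 and 2.17 and Nkg7 at 0.13, while the neutrophil and monocyte genes have a median of 6.22.

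The pathways that the table itself assigns were counted in the same way, beside the 5.18% of all genes tested that edgeR called higher and the 1.53% called lower. Of 88 tested genes of T cell receptor signaling, 4 were called higher (Cd8a, Cd8b, Ptpn6 and Vav1) and 1 lower (Cd4) by edgeR (30 and 8 at an unadjusted p under 0.05, 23 and 7 by DESeq2), 61 were above 0 and the median was 0.39. Ptpn6, an inhibitory phosphatase, and Vav1, an exchange factor, are found in all leukocytes, and their log2 fold changes were 2.12 and 2.67. Of 67 tested genes of B cell receptor signaling, 5 were called higher (Ifitm1, Rac2, Ptpn6, Fcgr2b and Vav1) and 0 lower by edgeR (26 and 5 at an unadjusted p under 0.05, 22 and 5 by DESeq2), with a median of 0.55. Of 95 tested genes of natural killer cell mediated cytotoxicity, 8 were called higher and 2 lower by edgeR (28 and 12 at an unadjusted p under 0.05, 25 and 10 by DESeq2), with a median of 0.26. The 8 were Tyrobp, Rac2, Itgb2, Ifngr2, Ptpn6, Icam1, Bid and Vav1, most of which are not specific to NK cells, and the 2 were the MHC class I genes RT1-N2 and RT1-M3-1. Of 28 tested genes of primary immunodeficiency, 5 were called higher (Ung, Orai1, Cd8a, Cd8b and Ada) and 1 lower (Cd4) by edgeR (10 and 1 at an unadjusted p under 0.05, 9 and 1 by DESeq2), with a median of 0.75. From 2 to 5 genes of each pathway passed the filter through ischemia alone.

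Of 10 genes carried by all leukocytes 4 were called higher and 0 lower by edgeR (8 and 0 at an unadjusted p under 0.05, 6 and 0 by DESeq2), and their median log2 fold change was 2.40. Itgb2, the beta chain of leukocyte integrins, rose by 4.16 ± 0.53 (SE; edgeR adjusted p 0.0272), Coro1a by 2.71, Laptm5 by 2.69 and Rac2 by 2.10 on the log2 scale (edgeR adjusted p 0.0378, 0.0382 and 0.0422). Arhgdib and Cd48, which had high levels in both groups, had 1.002 and 0.25 and did not pass, and Cd48 had -0.065 without ischemia replicate 2. Ptprc, which encodes the common leukocyte antigen CD45, had an FPKM of 1.46, 0.501 and 1.51 in sham and 2.33, 29.1 and 3.25 in ischemia (3.21, edgeR adjusted p 0.0968). The ratio of Cd3e to Ptprc was 1.31, 3.13 and 0.971 in sham and 1.17, 0.106 and 0.910 in ischemia, so that ischemia replicate 2 had little Cd3e RNA for its Ptprc RNA.

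Of the neutrophil and monocyte genes, 10 of 14 tested were called higher, with a median of 6.22 (9 of the 14, and 7 of the 10, passed the filter only through ischemia), and the most abundant, S100a9, had an FPKM of 4.98 to 11.0 in sham and 241.2 to 2224 in ischemia. Within ischemia, Cd8a and this list had the same order of samples, with replicate 2 highest and replicate 3 lowest; whether cells of that kind contributed to the Cd8a RNA was not tested. Of 11 resident macrophage genes 2 were called higher (Cd68 and Cd163) and 0 lower by edgeR (5 higher and 3 lower at an unadjusted p under 0.05, 5 and 2 by DESeq2), with a median of 0.07, a summed CPM of 378.0 to 447.8 in sham and 429.8 to 653.0 in ischemia, and C1qa as the most abundant (FPKM 67.3 to 92.2 and 48.2 to 61.2). Of 3 tested dendritic cell genes 0 were called (summed CPM 11.6 to 19.1 and 12.9 to 22.4; 1 at an unadjusted p under 0.05 and 1 called by DESeq2), with Zbtb46 as the most abundant at an FPKM of 1.98 to 3.44. Siglech, a dendritic cell gene below the filter, had 0 counts in every sham library and 30, 184 and 44 in ischemia. Its edgeR adjusted p in the fit without the filter was 0.0541. Xcr1 and Cd209a, the other dendritic cell genes below the filter, had overlapping groups. Of the markers of immature thymocytes, the recombination genes were at or near 0: Rag2 had no count in any library, and FPKM of Rag1 and Dntt was at most 0.0942 and 0.111. Ptcra, the pre-T cell receptor chain, was listed at 0 in sham and at 0.167 to 0.860 in ischemia. Ccr9 was likewise listed at 0 in sham and at 0.0703 to 0.264 in ischemia. The only tested gene of the thymocyte list, Cd1d1, had 12.3 to 29.9 in sham and 3.81 to 10.6 in ischemia (edgeR adjusted p 0.0656). Red cell genes, a measure of blood in the tissue, had a summed CPM of 3118 to 4502 in sham and 3170 to 5488 in ischemia, with 0 of 5 called by edgeR, DESeq2 or limma and 0 at an unadjusted p under 0.05, and Hba-a1 was the most abundant (log2 fold change 0.09).

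**Figure D5:**
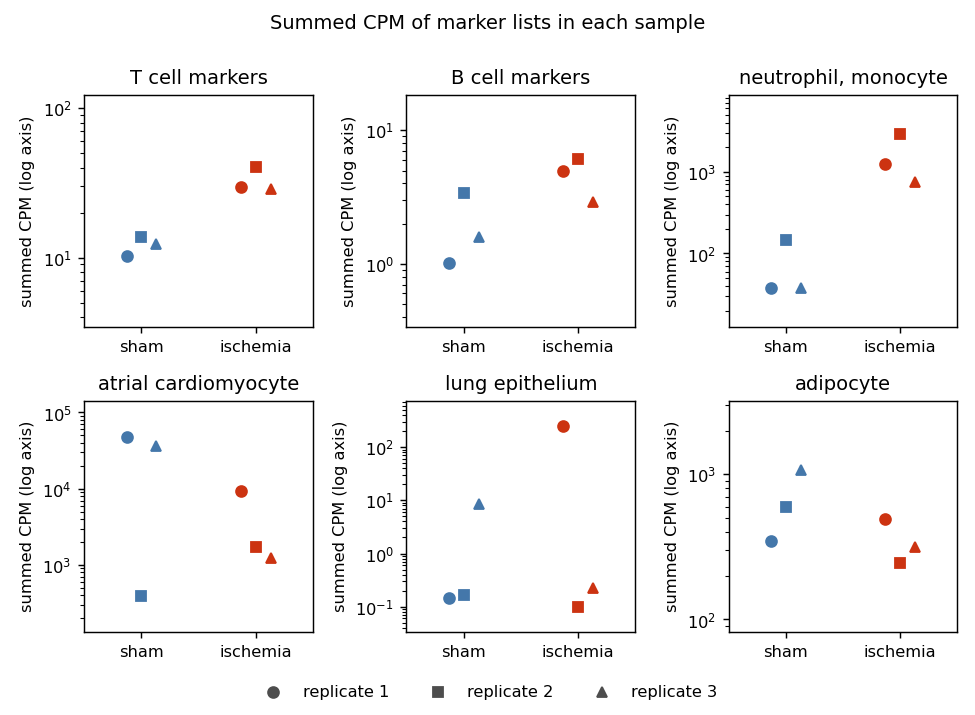
Summed CPM (log axes) of the T cell and B cell markers and of 4 lists of other cell types in each sham (blue) and ischemia (red) sample, where the shape gives the replicate. The T cell sums lie at 10.3 to 13.7 in sham and 28.9 to 40.8 in ischemia, and the atrial, lung and adipocyte sums overlap between the groups.

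The other lists describe the tissue of each library. Ventricular cardiomyocyte genes had a summed CPM of 48540 to 84290 in sham and 13960 to 29680 in ischemia (0 of 7 called by edgeR, 3 lower at an unadjusted p under 0.05 and by DESeq2, 2 lower by limma), with an FPKM of Actc1 of 10210 to 10827 and 2654 to 4709. Cardiomyocyte transcripts were thus abundant in every library. Actc1 and Myh6 are also expressed in atria, and the ventricular light chain gene Myl2 did not follow the sum, with FPKM of 366.0, 2795 and 346.4 in sham and 1315, 594.2 and 1238 in ischemia. Sham replicates 1 and 3, the libraries with the highest atrial sums, were the lowest for Myl2, and also for the ventricular light chain gene Myl3, at an FPKM of 796.0 and 1021 against 3180 to 9024 in the other libraries. Adipocyte genes summed to 349.4 to 1076 and 245.3 to 492.2 CPM (0 of 5 called by edgeR, 1 lower at an unadjusted p under 0.05, 2 lower by DESeq2), led by Fabp4, while for Adipoq, Plin1 and Lep every ischemia value lay below every sham value and the median log2 fold change was -3.54. Endothelial genes summed to 772.2 to 909.6 and 708.5 to 990.7 CPM (0 of 4 called by edgeR, DESeq2 or limma, 0 at an unadjusted p under 0.05), led by Cdh5. Fibroblast genes summed to 3390 to 8705 and 721.8 to 2459 CPM (0 of 4 called by edgeR, 2 lower at an unadjusted p under 0.05 and by DESeq2), led by Col3a1. Among the atrial genes 0 of 5 were called by edgeR, DESeq2 or limma (1 at an unadjusted p under 0.05), led by Nppa at an FPKM of 67.7 to 33225 in sham, and among the lung genes 0 of 3 (1 at an unadjusted p under 0.05, with no adjusted p from DESeq2), led by Scgb1a1 at an FPKM of 394.4 in ischemia replicate 1.

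The genes whose pattern over the 6 samples was most like the summed T cell markers were sought among all other tested genes, by Pearson correlation of log2 CPM. The 5 highest were Slamf6 (r = 0.9993), a receptor of T, B and NK cells, Lman2 (0.9976), Fetub (0.9976), Bcl3 (0.9972) and the neutrophil chemokine gene Cxcl1 (0.9970). These values describe 6 libraries that share groups, depth and tissue composition. Slamf6 had an FPKM of 0.0830, 0.138 and 0.133 in sham and 1.27, 3.49 and 1.26 in ischemia. Since the summed T cell markers were themselves apart between the groups, the choice of these genes fixed their difference, which was not tested. Among the members the same measure was 0.988 for Cd8a, which contributes most to the sum in ischemia, and 0.715 to 0.878 for the other T cell markers. Each T cell marker is itself part of the sum, so these values cannot be set beside those of the other members. Those were 0.852 and 0.867 for Cd79a and Cd79b, and 0.406 for Nkg7.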

How the data were processed

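Total RNA libraries were made with a stranded kit, per the labels. The authors deposited 1 table of 32623 genes with raw counts, whole numbers that were not normalized, and with FPKM, which the authors had scaled by gene length and library size and set to 0.0001 where a gene had no reads. The submitters' processing notes name STAR and HTSeq; versions, counting rule and genome build were not given in the sources used here, so gene positions are those of the table. The authors' columns held no comparisons.

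Samples were grouped by the labels. Counts were scaled by the trimmed mean of M-values, genes were kept where their FPKM averaged 0.5 or more, and ischemia was compared with sham by the quasi-likelihood F test of edgeR 4.0.16 in R 4.3.3, two-sided, with Benjamini-Hochberg adjustment over 13964 genes and a threshold of 0.05. The standard error was derived from the F statistic and 95% intervals from its degrees of freedom. CPM are counts scaled to the library size times its scaling factor. Exact permutation tests were two-sided on log2 values. Floors of 3 counts use the total counts without the scaling factor and cover counting error only. Alternatives used DESeq2 1.42.0, limma 3.58.1 on log2(FPKM + 0.1) and log2(FPKM + 1), other filters and scalings, the replicate number as a block, and each sample left out. Promoters and figures used Python 3.11.15 and matplotlib 3.10.9.

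The 9 members and all gene lists were chosen with earlier results of these data known. Named genes were the members, the called genes (up to 4 per direction) and the 3 most abundant genes of each wider lymphocyte and leukocyte list, the most abundant gene of each other list, and the 5 genes most like the summed T cell markers. Lck, Zap70, Cd247, Icos, Spib, Fcrla, Btk, Pax5, Prf1, Il18rap, Ncr3, Cd244, Gzmk, Xcl1, Gzmc, Cxcr3, Il2, Ptprc, the immunoglobulin genes, Jchain, the called pathway genes, the thymocyte genes, Cd68, Cd163, Myl2, Myl3, Myh6, Adipoq, Plin1, Lep and the Y-linked genes were named outside that rule after their values were seen. Siglech, Xcr1 and Cd209a were named in that way too. Some genes of the lists are counted but not reported by name here.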

Additional observations from a re-analysis of the deposited data

How the results depend on the processing

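The direction of Cd3d, Cd3e, Cd3g, Cd8a, Cd2, Cd79a, Cd79b and Ms4a1 was the same in every alternative fit that held them. Cd8a ranged from 1.85 to 2.32 and was called in 13 of 19 alternatives, with adjusted p-values from 5.28e-11 (DESeq2) to 0.394 (edgeR). Cd8b (1.25 to 2.82) was called in 12.

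Genes called higher and lower numbered 2071 and 1742 with DESeq2, which called 3 members; lower genes numbered 93 without a filter, 86 with scaling by total counts (which moved the median of all genes to 0.089) and 443 with quantile normalization in limma. With each sample left out in turn, edgeR called 0 to 1492 genes higher, 0 to 1116 lower, 0 to 1 member higher and 0 lower; the 4 fits with 0 calls had 3020 to 3809 genes at an unadjusted p under 0.05. With the replicate number as a block, edgeR called 0 genes higher, 0 lower and 0 members (3349 genes at an unadjusted p under 0.05; Cd8a 2.15, adjusted p 0.0943). Same-numbered samples did not deviate together (r = -0.070, -0.16 and -0.19, mean -0.14, against 0.065 for other pairs), so the numbers were not taken as pairs. Chosen after seeing the data, leaving out sham replicates 1 and 3 together, which leaves 1 sham sample assumed to vary like the ischemia group, gave 0 higher and 0 lower genes and 0 members (1707 at an unadjusted p under 0.05; Cd8a 2.18, edgeR adjusted p 0.394). Removal of the mitochondrial genome, also added later, gave 726 and 212. The cause of these changes was not tested.

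Estimates that changed sign, none of them called, were Nkg7 at -0.12 without sham replicate 1, -0.018 without ischemia replicate 2 and -0.19 without sham replicates 1 and 3; Fcer2 at 0.093, Il2rb at 0.085 and Gzmm at 0.013 without sham replicate 2; Cxcr4 at -0.66 and Cd48 at -0.065 without ischemia replicate 2; and S1pr1 at 0.63 and Cxcr4 at -0.071 without sham replicates 1 and 3. With each sample left out, ranges were -0.12 to 0.31 for Nkg7, -3.22 to 0.093 for Fcer2, -0.51 to 0.085 for Il2rb, -0.76 to 0.013 for Gzmm, -0.66 to 0.92 for Cxcr4 and -0.065 to 0.44 for Cd48. Ms4a1 rested on 0 to 61 counts per library.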
